A study of Homo sapiens with 4 samples.

Results

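CD68 and SPP1 are genes associated with macrophages, though not only with them, and both stood among the largest rises after verticillin A in a cultured colon carcinoma line. They are 2 of the 14884 genes measured here, and they were chosen by their higher values in treated cells in this same comparison, so their own levels are given as a description with no test. LS411N-5FU-R, a derivative of the human colon carcinoma line LS411N made resistant to 5-fluorouracil (5-FU), was grown either in 50 nM verticillin A, an epipolythiodioxopiperazine made by fungi, or in medium without it (0 nM, control), and RNA was taken after 3 days. Each group had 2 arrays. Both groups therefore carry the acquired resistance to 5-FU, and no group of the parental line was used. Separate cultures are not mentioned in the labels, and the spread behind each p-value may be technical. Arrays read RNA pooled over all cells, so more RNA in every cell and more in a few cells cannot be told apart.

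CD68 encodes a heavily glycosylated membrane protein of late endosomes and lysosomes, a relative of the LAMP proteins, and antibodies to it are the usual stain for tissue macrophages, although other cells with many lysosomes also carry it. SPP1 encodes osteopontin, a secreted phosphoprotein of the SIBLING family (small integrin-binding ligand N-linked glycoproteins) that binds integrins through an RGD motif and also binds CD44. In colorectal tumours osteopontin is made by carcinoma cells and by a subset of tumour macrophages named after SPP1.

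The bases just before each gene's start are shown because the transcription factors described further on have been studied at these promoters. Each run below is the 250 bases upstream of the start in RefSeq (GRCh38.p14, plus strand), at chr17:7579388-7579637 for CD68 and chr4:87975464-87975713 for SPP1, and capitals mark the matches to the motifs searched.
CD68: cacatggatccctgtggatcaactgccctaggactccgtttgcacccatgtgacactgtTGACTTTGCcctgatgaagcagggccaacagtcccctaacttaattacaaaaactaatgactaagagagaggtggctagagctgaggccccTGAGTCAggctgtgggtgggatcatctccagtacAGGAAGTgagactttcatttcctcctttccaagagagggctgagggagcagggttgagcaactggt
SPP1: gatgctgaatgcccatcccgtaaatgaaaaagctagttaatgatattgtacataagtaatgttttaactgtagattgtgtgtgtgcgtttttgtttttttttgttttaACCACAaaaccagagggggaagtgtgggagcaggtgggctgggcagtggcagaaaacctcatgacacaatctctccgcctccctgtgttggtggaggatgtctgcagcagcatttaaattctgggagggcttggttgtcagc
The 9 motifs, searched on both strands, were an AP-1 site (TGANTCA), an ETS site with flanks (AGGAAGT), a RUNX site (TGTGGT), a CRE (TGACGTCA), an NRF2 site (TGACNNNGC), a heat shock element pair (GAANNTTC), the HIF core (ACGTG), a GC box (GGGCGG) and a TATA box (TATAAA). The CD68 window held the AP-1 letters from 100 to 94 bases before the start, the ETS letters from 66 to 60 and the NRF2 letters from 191 to 183, and the capitals do not overlap. Of 35116 such windows over all genes, 6.57% held the AP-1 letters, 7.01% the ETS letters and 10.9% the NRF2 letters. The SPP1 window held 1 match, the RUNX letters on the minus strand from 142 to 137 bases before the start, which 11.0% of all windows hold. CD68 and SPP1 thus shared no exact match to these letters in these windows, and looser forms of the motifs were not searched. The SPP1 window holds gggaagt, which differs from the ETS letters in 1 base. GC content was 51.6% for CD68 and 44.8% for SPP1, against a median of 58.0% over all windows.

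CD68 was measured by 1 probe set. Its log2 expression values were 8.83 and 8.78 with verticillin A, against 7.42 and 7.44 in control cells. The treated pair lay far above the control pair, and the arrays of each group nearly coincided. CD68 averaged 8.81 ± 0.04 with verticillin A and 7.43 ± 0.01 in control cells (SD, n = 2 each), a log2 change of 1.38 or 2.60-fold. Comparing single arrays, the lowest treated value was 2.53-fold above the highest control value, and the highest treated value was 2.67-fold above the lowest control value.

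SPP1 was also measured by 1 probe set, so its splice forms were not told apart. Its log2 expression values were 7.51 and 7.92 with verticillin A, against 6.37 and 6.32 in control cells. The groups again did not overlap, as in 54.8% of all genes, but the treated arrays of SPP1 stood well apart from each other. SPP1 averaged 7.72 ± 0.29 with verticillin A and 6.35 ± 0.04 in control cells (SD, n = 2 each), a log2 change of 1.37 or 2.59-fold. Between single arrays the ratio ran from 2.21-fold (lowest treated over highest control) to 3.04-fold (highest treated over lowest control). The treated arrays of SPP1 differed by 0.41 on the log2 scale, and 97.8% of all genes had a smaller difference between those arrays, whose median was 0.078. For CD68 that difference was 0.06, and 39.7% of genes had a smaller one. The control arrays differed by 0.05 for SPP1 and 0.02 for CD68, against a median of 0.097 over all genes. Without verticillin A replicate 2 the log2 change of SPP1 was 1.17, and without verticillin A replicate 1 it was 1.58, while that of CD68 was 1.41 and 1.35.

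**Figure D1:**
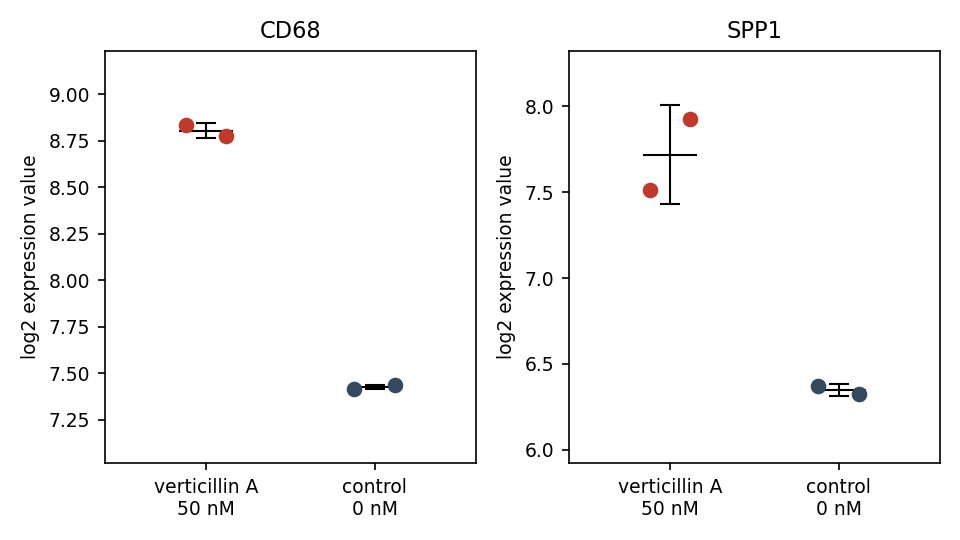
Log2 expression value of CD68 (left) and SPP1 (right) on each array, with cells given 50 nM verticillin A left of control cells (0 nM); points are arrays, the wide bar is the group mean and error bars are the SD (n = 2 each). Both genes are higher on both treated arrays, and the treated arrays of SPP1, at 7.51 and 7.92, lie further apart than those of CD68, at 8.83 and 8.78.

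In the order of all log2 changes CD68 was the seventh highest and SPP1 the eighth, between IGFBP6 (1.39) above and the long non-coding RNA LINC00640 (1.34) below. Their log2 changes differed by 0.0074, less than the spread of either gene between arrays. Likeness of pattern was measured as the distance between the 4 array values of a gene pair, each gene centred on its own mean. The genes nearest to CD68 were KRTAP2-3, a hair keratin-associated protein gene (distance 0.0749), the haem oxygenase gene HMOX1 (0.135), NAV3 (0.159), the inducible HSP70 gene HSPA1A (0.172) and the small RNA gene SNAR-H (0.201). Nearest to SPP1 were SNAR-H (0.148), IGFBP6, which encodes an insulin-like growth factor binding protein (0.241), the fatty acid elongase gene ELOVL3 (0.29), HMOX1 (0.314) and SCEL, which encodes sciellin of the epithelial cornified envelope (0.334). SPP1 was only the 12th nearest to CD68, and CD68 the sixth nearest to SPP1, at a distance of 0.335. HMOX1 and SNAR-H were thus near both. KRTAP2-3, HSPA1A and SNAR-H have near-identical copies whose RNA their probes may share, and 4 arrays in 2 groups make any pair of genes with a similar change look alike.

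CD68 and SPP1 are associated with macrophages, and the other macrophage genes measured had small changes at low levels. Of 30 macrophage and monocyte markers 12 were measured, and 0 passed limma's test (adjusted p under 0.05 after Benjamini-Hochberg adjustment over all genes), where 8.65% of all genes passed, 3.55% as higher and 5.10% as lower (528 and 759 genes, or 750 and 668 after median centring). Their changes were evenly split, with 6 positive and 6 negative, and their median was -0.01, as it was over all genes (-0.006). CD14, the endotoxin co-receptor of monocytes, had log2 values of 3.77 and 3.57 with verticillin A, against 3.63 and 3.78 in control cells. CSF1R, the receptor through which macrophages receive their survival signal, had 3.87 and 3.91 with verticillin A, against 3.76 and 3.83 in control cells. The haemoglobin scavenger receptor CD163 had 3.53 and 3.48 with verticillin A, against 3.55 and 3.54 in control cells. For CD14 the groups overlapped, and for CSF1R and CD163 they stood apart by less than 0.1. The largest change toward higher values was that of LAPTM5, a lysosomal protein of blood cells, at 0.33 ± 0.08 (SE). It was the 1 marker with an unadjusted p under 0.05 (limma adjusted p = 0.0643). Over all genes 3970 of 14884 had an unadjusted limma p under 0.05, the background for such counts here and below. The signalling adaptor TYROBP had the largest change toward lower values (-0.24 ± 0.15, SE). MSR1, TREM2, MARCO, VSIG4, LYZ, SPI1 and CD84 had log2 changes between -0.20 and 0.10. Averaged over the 12 markers, the log2 level was 3.88 and 3.91 on the treated arrays, against 3.87 and 3.93 on the control arrays, and single values ran from 3.48 to 4.69. The deposited values of the whole table ran from 2.60 to 14.47, with array medians from 4.59 to 4.62. All 12 markers were among the dimmer 50% of genes. Without detection calls, whether they lie above background was not tested. ITGAM and PTPRC, 2 of the defining markers, were not analysed here.

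**Figure D2:**
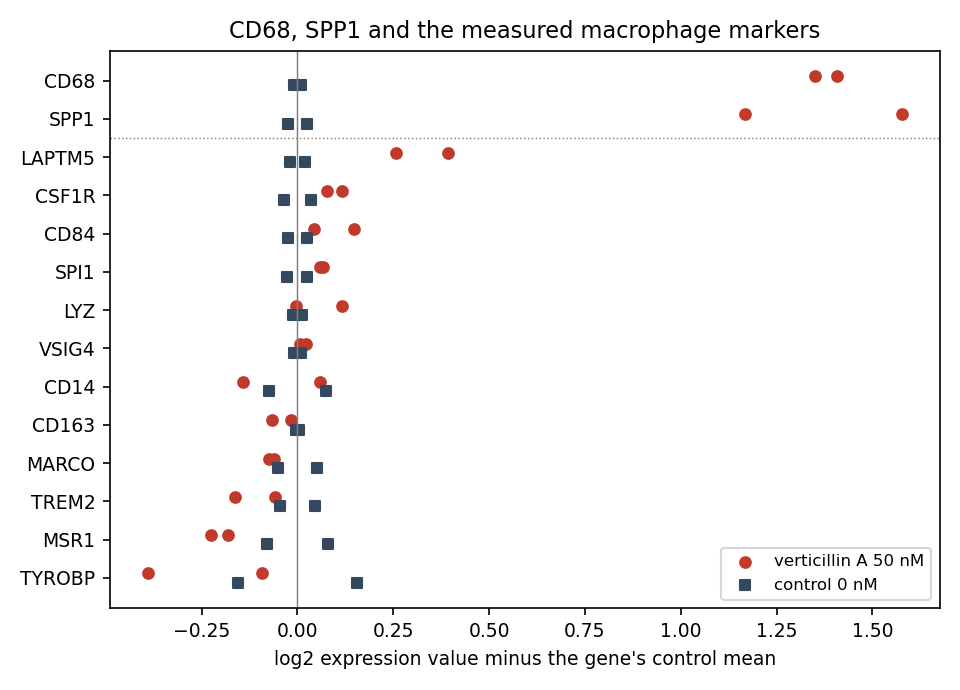
Log2 expression value of each array minus the gene's control mean, for CD68, SPP1 and the 12 measured macrophage markers; red circles are the 2 arrays with 50 nM verticillin A and dark squares the 2 control arrays (0 nM). The treated arrays of CD68 and SPP1 lie more than 1 above their control means, whereas those of the markers run from LAPTM5 on the right to TYROBP on the left within 0.4 of theirs.

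Markers of the labelled cell type were checked in the same way. The epithelial adhesion gene EPCAM had log2 values of 10.94 and 10.94 with verticillin A, against 11.09 and 11.13 in control cells, and the keratin gene KRT18 had 10.44 and 10.44, against 10.29 and 10.45. The colonic keratin KRT20 had 4.78 and 4.57 with verticillin A, against 4.64 and 4.59 in control cells, and the intestinal factor CDX2 had 5.53 and 5.23, against 5.19 and 5.19. Without detection calls, whether KRT20 and CDX2 lie above background was not tested. Of 12 measured epithelial markers, whose median was 0.06, KRT19 rose (0.44 ± 0.09, limma adjusted p = 0.0493). VIL1, which encodes villin, fell (-0.62 ± 0.08, limma adjusted p = 0.0167). Limma called 3.55% of all genes higher and 5.10% lower. The other measured epithelial markers, KRT8, CDX1, CEACAM5, CEACAM6, GPA33 and TFF3, had log2 changes from -0.11 (TFF3) to 0.20 (CEACAM6). In control cells they averaged 6.91 (KRT8), 5.01 (TFF3), 4.44 (GPA33), 4.06 (CDX1), 3.55 (CEACAM5) and 3.29 (CEACAM6). GPA33, CDX1, CEACAM5 and CEACAM6 were thus about as low as the macrophage markers, and whether they lie above background was not tested. Of 6 T, NK and B cell markers 1 passed limma, NCAM1, which neural cells also use (-0.57 ± 0.08, adjusted p = 0.0215), and their median was -0.02. NCAM1 had log2 values of 4.09 and 4.23 with verticillin A, against 4.69 and 4.76 in control cells. CD247 (0.24), CD4 (0.11), NKG7 (-0.01), CD2 (-0.04) and CD8A (-0.16) did not pass. Of 5 endothelial and fibroblast markers 0 passed limma and 0 had an unadjusted p under 0.05 (median 0.06), with log2 changes of 0.14 for LUM, 0.07 for PECAM1, 0.06 for DCN, -0.08 for VWF and -0.19 for KDR. Single values ran from 3.50 to 5.11 for the T, NK and B cell markers and from 3.38 to 4.65 for the endothelial and fibroblast markers. Whether these markers, NCAM1 included, lie above background was not tested. The part that any of these cell types has in the values of CD68 and SPP1 was not tested.

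Genes reported together with SPP1 in tumour macrophages were looked up next. Of 13 measured, 0 rose and 1 fell in limma, against 3.55% and 5.10% of all genes, and their median log2 change was 0.02. VCAN, the matrix proteoglycan versican, fell to 7.98 and 7.83 with verticillin A, against 8.71 and 8.68 in control cells (-0.79 ± 0.08, SE, limma adjusted p = 0.0115). Its probe sets differed, and averaged over them the log2 change was -0.39 (limma adjusted p = 0.035). GPNMB, a lysosomal glycoprotein of lipid-laden macrophages, had 3.97 and 4.20 with verticillin A, against 3.71 and 3.83 in control cells (0.31 ± 0.10, SE, limma adjusted p = 0.128). APOE and APOC1, which encode apolipoproteins, had log2 changes of 0.005 and 0.03, and fibronectin (FN1) had -0.06. The fatty acid binding protein gene FABP5 (0.30 ± 0.19, SE), the tetraspanin gene CD9 (0.30 ± 0.08), the lipid droplet gene PLIN2 (0.11 ± 0.08) and IL1RN (0.09 ± 0.07) also missed the threshold. On the lower side were the cathepsin gene CTSB (-0.33 ± 0.08, SE, limma adjusted p = 0.0573), the lipid receptor gene TREM2 (-0.11 ± 0.08) and the scavenger receptor gene MARCO (-0.07 ± 0.07), none past the threshold, and the log2 change of CTSD was 0.02 ± 0.07. Of 7 measured markers of osteoclasts and osteoblasts, cells in which SPP1 is likewise prominent, 0 passed limma. An unadjusted p under 0.05 was found for 2, CTSK (0.33 ± 0.08) and IBSP (-0.33 ± 0.07), and for 3970 of all 14884 genes. OCSTAMP (0.09), CALCR (0.08), DCSTAMP (0.07), RUNX2 (0.01) and SP7 (-0.04) were the others.

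CD68 is a lysosomal protein, and the genes of its compartment went both ways. Of 11 measured lysosomal membrane genes other than CD68, 1 rose and 2 fell in limma (median 0.02), against 3.55% and 5.10% of all genes. The calcium channel gene MCOLN1 rose to 8.77 and 8.82 with verticillin A, against 8.09 and 8.34 in control cells (0.58 ± 0.10, SE, adjusted p = 0.0327). LAMP3, the member of the LAMP family found in dendritic cells and induced by stress, fell to 5.95 and 5.99 with verticillin A, against 6.71 and 6.66 in control cells (-0.71 ± 0.07, SE, limma adjusted p = 0.0108). TMEM106B, a regulator of lysosome acidification and transport, fell by 0.38 ± 0.07 (limma adjusted p = 0.0385), a call lost after median centring (log2 change -0.34, adjusted p = 0.056). For LAMP1, the most used lysosome marker, log2 values were 10.22 and 10.27 with verticillin A, against 10.22 and 10.24 in control cells and the groups overlapped. LAMP2 had 9.23 and 9.25 with verticillin A, against 9.46 and 9.33 in control cells (limma adjusted p = 0.274). The others were CD63 (0.08), LAPTM4B (0.07), LAPTM4A (-0.08) and TMEM192 (-0.13), with GPNMB and LAPTM5 as above.

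Of 24 lysosomal hydrolases, activators and regulators, 1 rose and 3 fell in limma (median -0.006), against 3.55% and 5.10% of all genes. CTSV, a cysteine cathepsin, rose to 7.12 and 7.08 with verticillin A, against 6.43 and 6.57 in control cells (0.60 ± 0.08, SE, adjusted p = 0.0177). CTSO, another cysteine cathepsin, fell to 5.23 and 5.10 with verticillin A, against 6.35 and 6.34 in control cells, a 2.26-fold fall (limma adjusted p = 0.00571). TFE3, a transcription factor that switches on lysosome genes, fell by 0.62 ± 0.10 (limma adjusted p = 0.0302), and PSAP, the saposin precursor gene, fell by 0.43 ± 0.08 (limma adjusted p = 0.0411). TFEB and MITF, the relatives of TFE3, had log2 changes of 0.17 and -0.13 and did not pass; these 2 were picked for mention after their values were seen. ARSA (0.42 ± 0.12), CTSL (0.38 ± 0.10), CTSC (-0.36 ± 0.08) and CTSB (-0.33 ± 0.08) had the largest changes among those not past the threshold.

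The SIBLING genes lie in a cluster on chromosome 4, and the 4 relatives of SPP1 were all measured. In limma 3970 of all 14884 genes had an unadjusted p under 0.05. Of these relatives 0 passed the adjusted threshold, and 1 had an unadjusted p under 0.05. That gene was IBSP, bone sialoprotein, with log2 values of 3.95 and 3.88 with verticillin A, against 4.20 and 4.28 in control cells (-0.33 ± 0.07, SE, adjusted p = 0.0552). After quantile normalization IBSP passed in limma (adjusted p = 0.0467). The dentin matrix gene DMP1 had a log2 change of -0.17 ± 0.07, MEPE -0.03 ± 0.09 and DSPP 0.004 ± 0.09 (SE). Single values of these relatives, IBSP among them, ran from 3.35 to 4.28, under the array medians of 4.59 to 4.62. Whether they lie above background was not tested. Of 11 genes for osteopontin receptors only CD44 was measured, and the integrin genes of that list were not analysed here. CD44, the hyaluronan receptor, fell to 11.17 and 11.16 with verticillin A, against 11.57 and 11.59 in control cells (-0.41 ± 0.07, SE, limma adjusted p = 0.0274). The receptor was thus lower on both treated arrays and SPP1 higher. Of 13 genes for enzymes that phosphorylate, cross-link or cut osteopontin 4 were measured and 0 passed limma, with 0 at an unadjusted p under 0.05. These were thrombin (F2, 0.13 ± 0.08), cathepsin D (CTSD, 0.02 ± 0.07), MMP12 (-0.05 ± 0.08) and plasminogen (PLG, -0.14 ± 0.07). Values of F2, MMP12 and PLG ran only from 3.21 to 3.87, and whether they lie above background was likewise not tested.

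**Figure D3:**
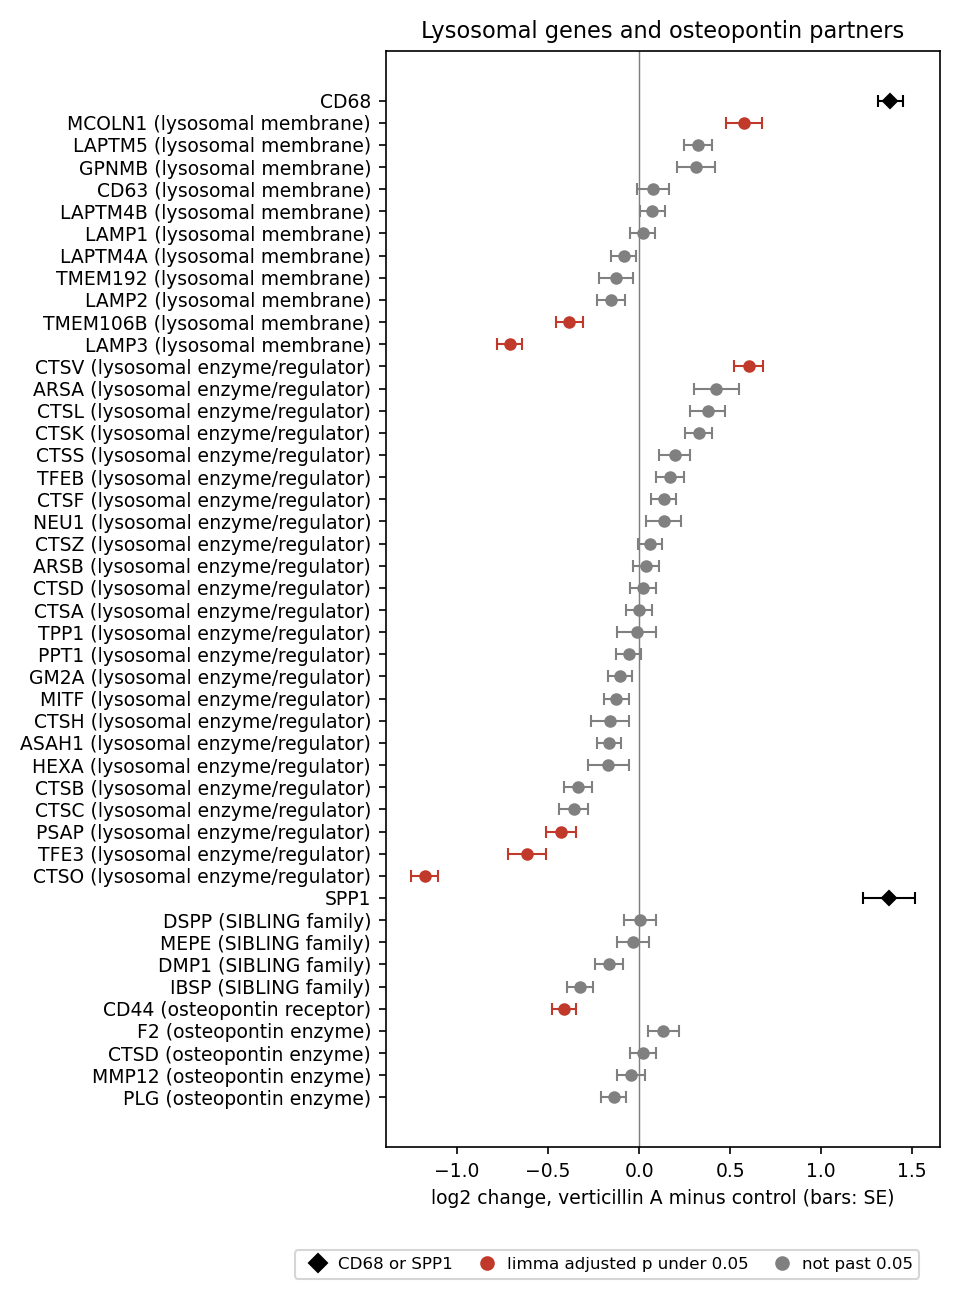
Log2 change, verticillin A minus control, of CD68 with the measured lysosomal genes (above) and of SPP1 with its family, receptor and enzymes (below); bars are the moderated SE from 2 arrays a group, black diamonds are CD68 and SPP1, red circles passed limma at an adjusted p of 0.05 and grey circles did not. CD68 at 1.38 and SPP1 at 1.37 lie to the right of every other gene plotted, and CTSO at -1.18 lies furthest left.

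Among transcription factors studied at the CD68 or SPP1 promoter, 19 of 24 were measured. Of these 2 rose and 4 fell in limma (median -0.13), against 3.55% and 5.10% of all genes. The AP-1 subunits differed in direction. FOSL1, a FOS relative, rose to 8.41 and 8.40 with verticillin A, against 7.92 and 7.81 in control cells (0.54 ± 0.07, SE, limma adjusted p = 0.0199). JUN fell to 7.36 and 7.36 with verticillin A, against 8.35 and 8.48 in control cells (-1.06 ± 0.08, SE, limma adjusted p = 0.00689), and JUND fell by 0.63 ± 0.08 (limma adjusted p = 0.0179). FOS had a log2 change of -0.35 ± 0.08 (limma adjusted p = 0.0537). The ETS family was split too. ETS1 rose to 6.89 and 6.97 with verticillin A, against 6.50 and 6.47 in control cells (0.44 ± 0.07, SE, limma adjusted p = 0.0265), whereas ELF1 fell by 0.39 ± 0.08 (limma adjusted p = 0.0466) and ETV4 had -0.35 ± 0.09 (limma adjusted p = 0.0683). STAT3, which carries cytokine signals, fell by 0.45 ± 0.07 (limma adjusted p = 0.0269), and MYC had a log2 change of -0.29 ± 0.07 and LEF1 of 0.18 ± 0.12. SPI1, the myeloid ETS factor PU.1 that acts at the CD68 promoter in macrophages, had 3.79 and 3.78 with verticillin A, against 3.70 and 3.75 in control cells, a log2 change of 0.06 ± 0.07 that did not pass. RUNX2, the bone factor studied at the SPP1 promoter, had 5.71 and 5.80 with verticillin A, against 5.72 and 5.77 in control cells, and the groups overlapped.

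The nearest measured genes around CD68 and SPP1 were set beside them by the order of genes in RefSeq. Around CD68 on chromosome 17, MPDU1 was the only one of the 6 nearest measured neighbours past the threshold, which 8.65% of all genes passed. MPDU1, which encodes a protein needed to use mannose-phosphate-dolichol in glycosylation, had log2 values of 5.10 and 5.27 with verticillin A, against 4.65 and 4.72 in control cells (0.50 ± 0.09, SE, limma adjusted p = 0.0318). It lies on the same strand as CD68 with 1 other annotated gene between them, and the annotated genes do not overlap. On the other side the read-through transcript SENP3-EIF4A1 had 9.59 and 9.61 with verticillin A, against 9.41 and 9.54 in control cells (0.12 ± 0.08, SE, limma adjusted p = 0.392). ZBTB4 (-0.08 ± 0.08), FGF11 (-0.28 ± 0.12), SOX15 (0.05 ± 0.16) and SHBG (0.09 ± 0.07) did not pass. Between CD68 and these genes lie 11, 13, 2 and 5 other annotated genes, and 4 lie between CD68 and SENP3-EIF4A1. Around SPP1 on chromosome 4, 0 of 6 passed limma, with IBSP the 1 at an unadjusted p under 0.05. The measured neighbours on one side are its relatives MEPE, IBSP and DMP1, described above, with 2, 3 and 6 other annotated genes between. On the other side the HERC family ubiquitin ligase genes HERC6, HERC5 and HERC3 had log2 changes of 0.07 ± 0.07, 0.07 ± 0.08 and 0.13 ± 0.08 (SE). They are not adjacent to SPP1, with 13, 15 and 20 other annotated genes between.

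**Figure D4:**
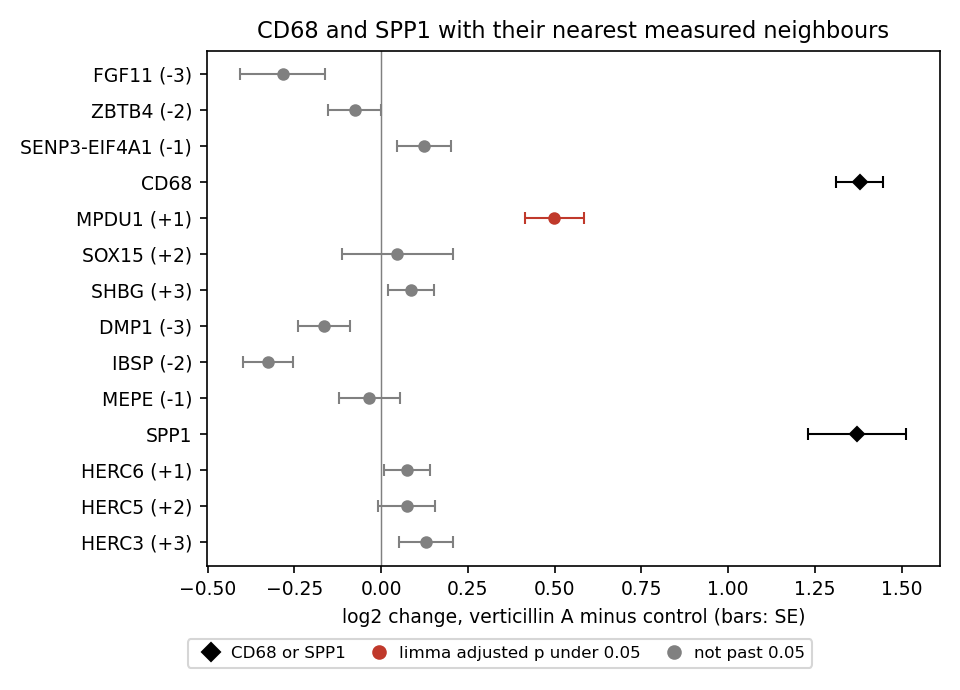
Log2 change, verticillin A minus control, of CD68 and SPP1 (black diamonds) and of the 3 nearest measured genes on each side of each, in RefSeq order from top to bottom with the place relative to CD68 or SPP1 in brackets; bars are the moderated SE from 2 arrays a group. MPDU1 at 0.50 is the only neighbour drawn in red, past an adjusted p of 0.05, and the other 11 are grey.

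The calls given for genes other than CD68 and SPP1 rest on few arrays. All 19 named genes called by limma lost the call when all 53617 probe sets were tested together and when either control array was left out, and their directions were the same in every alternative run.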

How the data were processed

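Transcript levels were read on 4 whole-transcript arrays (2 verticillin A, 2 control), each from 250 ng of total RNA, per the labels' protocols. The authors' deposited table holds a log2 value for each probe set on each array, made with GCRMA per the submitters' processing notes. The sources used here give no GCRMA version, annotation or genome build. The log2 scale was read from the range of values. Without detection calls, low values and background look alike, and the number of arrays limits the precision. The platform annotation names 1 gene for 16098 of 53617 probe sets, all matched by gene identifier to RefSeq (GRCh38.p14). A gene was represented by its probe set with the highest mean, which left 14884 genes. The groups were compared with limma 3.58.1 in R 4.3.3 (lmFit, eBayes) with Benjamini-Hochberg adjustment over all 14884 genes and a threshold of 0.05. The procedure was tested on simulated data with independent errors drawn from limma's own fitted variances, which says nothing of technical spread in these arrays. CD68 and SPP1, the 12 gene lists and the naming rule were chosen with earlier results of these data known. The rule names, per list, up to 6 called genes and 4 others with the largest change, all members of lists of up to 13, defining markers, the 3 nearest measured genes on each side and the 5 nearest patterns. Alternatives were quantile normalization, median centring, averaged probe sets, all probe sets, the dimmer 50% of genes left out, a trended robust prior, the replicate number as a block and each array left out.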

Additional observations from a re-analysis of the deposited data

How the results depend on the processing

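CD68 and SPP1 kept the direction of their changes under every alternative run, which was largely fixed in advance. Averaged probe sets, all probe sets, the dimmer genes left out, the trended prior and the replicate block return the main log2 changes unaltered. For both genes each treated array lay above each control array, so leaving out an array could not reverse the direction. After median centring the log2 changes were 1.4182 for CD68 and 1.4109 for SPP1. Over all genes, limma's calls (528 higher, 759 lower) became 1070 and 1329 with the dimmer genes left out, which also lowers the number tested, 1054 and 1360 with the trended robust prior, and 20 and 29 with all probe sets tested. Centring turned the split from mostly lower (759 of 1287) to mostly higher (750 higher, 668 lower). With the replicate block, limma called 228 higher and 364 lower. The labels give no batch, so the main comparison took no pairs and the block was an alternative only. Same-numbered arrays did not deviate together (r = 0.012 across genes).

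In the lists, all probe sets left 0 called in every list. With the replicate block the promoter factors had 3 called (6 before), osteopontin receptors 0 (1 before) and epithelial markers 1 (2 before). The genes reported with SPP1 in tumour macrophages had 3 called after quantile normalization and with the dimmer genes left out, and 2 after centring and with the trended prior, against 1. The lysosomal enzyme and regulator list had 7 with the dimmer genes left out and 8 with the trended prior, against 4. Leaving out the dimmer genes kept only 17 of its 24 genes in the test, and 7 of the 13 reported with SPP1. The SIBLING genes had 1 after quantile normalization, against 0. The osteoclast and osteoblast markers had 1 after quantile normalization, with the dimmer genes left out and with the trended prior, against 0. It was not the same gene throughout. After quantile normalization it was IBSP, which was lower (log2 change -0.32). With the dimmer genes left out only 1 of the 7 was tested, CTSK, which was higher. With the trended prior it was not IBSP (limma adjusted p = 0.064). Leaving out the dimmer genes removed all 6 T, NK and B cell markers, all 12 macrophage markers and all SIBLING and stromal genes from the test, so the 0 called in those lists (1 before for the T, NK and B cell markers) says nothing of stability. Macrophage markers had 0 called in the other alternatives too, some of which called few or 0 genes in all.

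With each array left out in turn, calls over all genes ran from 0 to 52 higher and from 0 to 105 lower, with 0 when either control array was left out. The genes reported with SPP1, the lysosomal enzymes and the promoter factors had 0 to 1 called, and the other lists 0. These fits have 1 residual degree of freedom in place of 2. The cause of the other shifts was not tested.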

Other observations

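The letters found upstream of CD68 and SPP1 were looked up before all measured genes with a RefSeq window. Of 552 genes whose window holds the AP-1 letters seen in the CD68 window, 4.35% were called higher and 3.08% lower with verticillin A, against 3.72% and 5.42% of the 10197 genes without them. Of 754 genes with the ETS letters 3.71% were called higher and 5.57% lower, against 3.75% and 5.28% of genes without. Of 1280 genes with the NRF2 letters 3.75% were called higher and 3.75% lower, against 3.75% and 5.51% of genes without. The RUNX letters of the SPP1 window stood before 988 genes, of which 4.35% were called higher and 4.86% lower, against 3.69% and 5.35% of genes without. These shares are descriptions, and no difference between them was tested. The median log2 change was 0.00 with the AP-1 letters and -0.004 without.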
